A study of Macaca fascicularis with 12 samples.

Results

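The transcripts of MX1 and MX2 were followed in macaque brain after injection of a baculovirus. Members were all probe sets whose single gene symbol in the array annotation is MX1 or MX2. These were 2 of 14133 named genes, with 3 of the 52865 probe sets of the array: 1 for MX1 (MmuSTS.3006.1.S1_at) and 2 for MX2 (MmuSTS.1927.1.S1_at, the brighter, and a dimmer one). All 3 lay above the filter on low signal that 31660 probe sets passed.

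The tissue came from 3 adult male cynomolgus macaques. Each animal received BV-HSVtk, a baculovirus named for herpes simplex virus thymidine kinase and purified by membrane chromatography and high-speed centrifugation, as 4 injections of 10 µL into the left striatum, with 1e8 particles at each site. The right hemisphere of the same animal received the mock preparation, virus-free Sf9 insect cell medium taken through the same purification, at matching coordinates. After 2 days, 2 tissue samples of some 100 mg were collected per hemisphere, and 1 array was hybridised with each, 6 BV and 6 mock. Every animal carried virus on the left, and the effect of treatment and that of hemisphere cannot be told apart; no uninjected tissue was compared here. The pieces are bulk tissue, in which more cells of a type and more RNA per cell cannot be told apart.

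MX1 and MX2 encode large GTPases of the dynamin superfamily that assemble into rings and block viruses. Their genes lie side by side and are switched on by type I and type III interferons, which signal through cell surface receptors. The protein of MX1, called MxA in primates, acts mainly in the cytoplasm against influenza and many other viruses. The protein of MX2, called MxB, sits at the nuclear envelope and hinders lentiviruses and herpesviruses. In resting tissue both transcripts are usually low, and they are used as markers of an interferon response.

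The arrays fell into 2 sets. The piece 2 arrays shared a trimmed mean of 100.01, while those of piece 1 ran from 141.54 to 189.46, so the piece number also marks an array set, balanced over animals and treatment. Signals were therefore quantile normalized before the tests. Mock replicate 6 had an actin 3'/5' signal ratio of 2.4, against 1.1 to 1.4 on the other 11 arrays, a sign of RNA that is less intact. Brain markers were present: MBP, a myelin protein, had a mean log2 signal of 12.67 in BV and 12.68 in mock tissue, and GFAP, the astrocyte filament protein, 12.40 and 12.35.

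MX1 transcript rose 8.23-fold in BV-injected tissue. In BV tissue its deposited signals ran from 998 through a median of 1680 to 3850, and in mock tissue from 157 through 250 to 360. Every BV array was thus above every mock array, on deposited and on normalized signals, and the lowest BV value lay 2.03 log2 units above the highest mock value. After normalization the 2 pieces of each hemisphere were averaged. The mock hemispheres of animals 1, 2 and 3 had log2 signals of 7.78, 7.96 and 8.02, and their BV hemispheres 11.14, 10.49 and 11.25. The mock values were close together, with a mean of 7.92 ± 0.12 (SD, n = 3), and the BV values lay further apart, at 10.96 ± 0.41 (SD, n = 3). In order of level, the 3 mock hemispheres were lowest and did not differ beyond the SD of 0.45 between pieces of a hemisphere. That SD is of single pieces, pooled over BV and mock hemispheres, and a mean of 2 pieces varies less. The BV hemisphere of animal 2 came next, and those of animals 1 and 3 lay above it and within that SD of each other.

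**Figure D1:**
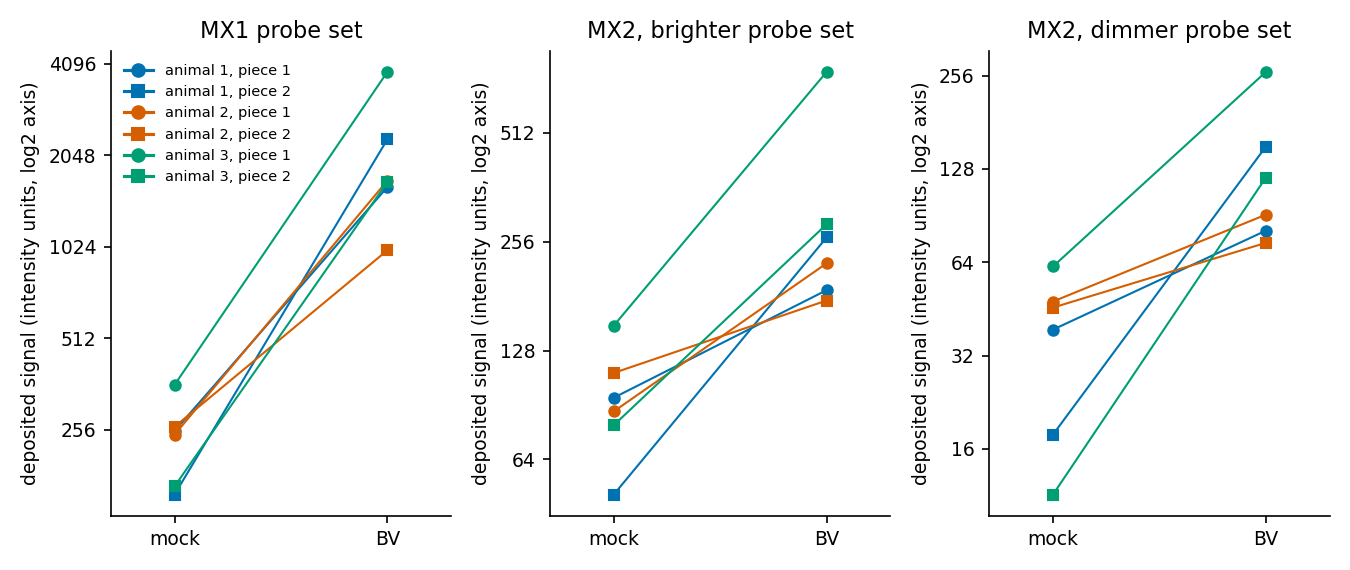
Deposited signals of the 3 MX probe sets on all 12 arrays, on a log2 axis in intensity units; each line joins the mock and BV array of 1 replicate number, colours mark animals and symbols tissue pieces. For MX1 the 6 BV arrays lie between 998 and 3850, all above the 6 mock arrays at 157 to 360, and no line of any panel falls.

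The log2 fold of MX1, BV minus mock, was 3.04 ± 0.19 (SE of the limma fit, n = 3 animals), with an adjusted p of 0.0256. It was 3.36, 2.54 and 3.22 in animals 1, 2 and 3, and positive in 6 of 6 replicate pairs. In this fit, with animal as a block, 9 of 31660 probe sets passed at an adjusted p of 0.05, all higher in BV tissue, which is 0.0284%. At an unadjusted p of 0.05, 1631 probe sets (5.15%) were higher and 1156 (3.65%) lower, against which the unadjusted counts of the lists can be read. The MX1 fold ranked 4 among all 31660, behind ISG15, a probe set with no listed symbol and ADAMDEC1, of which ISG15 passed. The call was lost on leaving out animal 1 (fold 2.88, adjusted p = 0.124), array BV 6 (3.06, 0.0655), array mock 3 (2.90, 0.215) or array mock 5 (3.11, 0.337), where 1 (0.00316%), 1, 1 and 0 (0%) probe sets of the array passed. The fold stayed between 2.75 and 3.29 in the 30 alternatives run. An exact sign-flip test over 3 animals cannot go below p = 0.25 and was not used.

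MX2 had higher values in BV tissue on both probe sets, about 3-fold, and neither passed in the fit on animals. The brighter probe set had deposited signals from 176 through a median of 243 to 754 in BV tissue and from 51.2 through 90.8 to 150 in mock tissue. The dimmer one had 73.9, 106 and 263 in BV tissue as its lowest, median and highest signal, and 11.4, 42.3 and 62.0 in mock tissue. For both, each BV array was above each mock array, by 0.30 and 0.20 log2 units between the nearest arrays after normalization. Of all probe sets tested, 75 (0.237%) were separated in this way on normalized and 44 (0.139%) on deposited signals, and all 3 MX probe sets were separated on both.

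For the brighter MX2 probe set the mock hemispheres of animals 1, 2 and 3 had log2 signals of 6.31, 6.57 and 6.86, and the BV hemispheres 7.90, 7.76 and 8.76. Animal 3 was highest on both sides. The mock mean was 6.58 ± 0.28 and the BV mean 8.14 ± 0.54 (SD, n = 3). The dimmer probe set had 5.02, 5.56 and 4.92 in mock and 6.89, 6.52 and 7.41 in BV hemispheres, with means of 5.17 ± 0.34 and 6.94 ± 0.45 (SD, n = 3). It placed animal 2 highest among mock hemispheres, so the probe sets order the mock animals differently, with neighbouring values closer than the SD between pieces of 0.46 and 0.63. Those SDs are of single pieces, while the hemisphere values are means of 2 pieces, which vary less.

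The fold of MX2 was 1.56 ± 0.18 for the brighter probe set (limma adjusted p = 0.173), or 2.94-fold, and 1.78 ± 0.29 for the dimmer one (adjusted p = 0.302), or 3.42-fold. In animals 1, 2 and 3 these folds were 1.59, 1.19 and 1.89, and 1.87, 0.97 and 2.49. Each was positive in 6 of 6 pairs, as were those of 1068 probe sets (3.37%). Where single arrays were fitted with the 6 pairs as the block, treating both pieces of an animal as if independent, the brighter probe set passed (adjusted p = 0.0266), as did 53 probe sets in that direction (0.167%), and the dimmer one did not (adjusted p = 0.0743). The brighter also passed with hemisphere as a random block (adjusted p = 0.0049) and without animal 2 (fold 1.74, adjusted p = 0.000512), animal 3 (1.39, 0.0296), mock replicate 4 (1.75, 0.034) or mock replicate 6 (1.52, 0.0444). Over the whole array, 85 probe sets (0.268%) passed with the random block, 1845 (5.83%) without animal 2, 82 (0.259%) without animal 3, 28 (0.0884%) without mock replicate 4 and 43 (0.136%) without mock replicate 6. The dimmer passed with the random block (0.0239) and without animal 2 (2.18, 0.000167). Each fit without an animal rests on 2 animals. The random block was fitted on the 12 single arrays with 1 correlation shared by all probe sets. Treatment differs only between hemispheres of 3 animals, so that fit counts more degrees of freedom than the fit on animals.

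**Figure D2:**
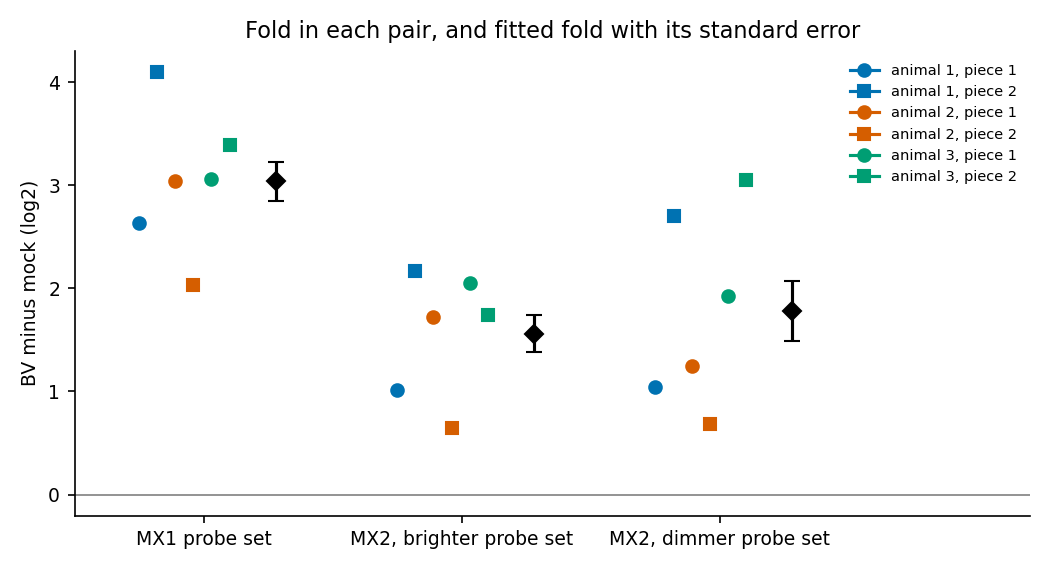
Difference BV minus mock in log2 units for each of the 6 replicate pairs (coloured by animal, symbols for pieces), with the fitted fold and its standard error as a black diamond, for the 3 MX probe sets. All pairs lie above 0, with those of MX1 from 2.03 to 4.10, and the pair of animal 2, piece 2, is lowest for each probe set.

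The pairs did not move alike. For MX1 the folds of pairs 1 to 6 were 2.63, 4.10, 3.04, 2.03, 3.06 and 3.39. For the brighter MX2 probe set they were 1.01, 2.17, 1.72, 0.65, 2.05 and 1.74, and for the dimmer one 1.04, 2.70, 1.25, 0.68, 1.93 and 3.05. The 3.05 of pair 6 rests on mock replicate 6, the array with the actin ratio of 2.4. The dimmer probe set had its lowest signal there, 11.4. This pair enters its fold in animal 3, its SD over animals and its piece 2 fold. Without mock replicate 6 the fitted fold of the dimmer probe set was 1.55, against 1.78 with all arrays. Pair 4, piece 2 of animal 2, was lowest for all 3, and pair 2, piece 2 of animal 1, was highest for MX1 and the brighter MX2 probe set. The SD of the fold over animals was 0.44 for MX1 and 0.35 and 0.77 for the MX2 probe sets, against a median of 0.27 over all probe sets tested.

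A difference in fold between animals or pieces did not pass. The animal by treatment interaction had F = 1.28 for MX1 (limma adjusted p = 0.898), and F = 0.789 (adjusted p = 0.927) and F = 2.00 (adjusted p = 0.89) for the brighter and dimmer MX2 probe sets. No probe set of the array passed this test (0 of 31660, 0%; 1620 at an unadjusted p of 0.05). In the piece 1 arrays the MX1 fold was 2.91 and in the piece 2 arrays 3.17, a difference of -0.26 ± 0.46 (adjusted p = 0.998). The MX2 probe sets had 1.59 and 1.52, a difference of 0.07 ± 0.44 (adjusted p = 0.998), and 1.41 and 2.14, a difference of -0.74 ± 0.45 (adjusted p = 0.995). Again no probe set of the array passed (0 of 31660, 0%; 1093 at an unadjusted p of 0.05). With 3 animals and adjustment over all probe sets, differences between pieces well above these standard errors could also go undetected. Fitted alone, the piece 2 arrays gave MX1 an adjusted p of 0.545, and 0 probe sets passed there (1747 at an unadjusted p of 0.05), while the piece 1 arrays gave 0.0194.

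MX1 had a larger fold than its neighbour MX2. In animals 1, 2 and 3 the MX1 fold exceeded that of the brighter MX2 probe set by 1.77, 1.35 and 1.33 log2 units, a mean of 1.48 ± 0.25 (SD, n = 3), and that of the dimmer one by 1.49, 1.57 and 0.73, a mean of 1.26 ± 0.46. The difference was therefore in the same direction in 3 of 3 animals for both probe sets, and no test of 3 animals by exact permutation can go below p = 0.25. The MX2 probe sets differed from each other by -0.28, 0.22 and -0.60, brighter minus dimmer, with no common direction. Folds of different probe sets also depend on how each binds, and the pseudocount of 3.49 lowers the fold of dim probe sets. Over the 12 arrays the log2 signals of MX1 and the brighter MX2 probe set correlated at r = 0.93, a description of arrays that share animals and treatment.

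Brain region differed between the arrays, and its marker values are set beside the MX signals here; no region marker passed between BV and mock tissue. A region index was taken for each array as the mean log2 signal of 9 measured thalamic markers minus that of 9 measured markers of striatal projection neurons. It ran from -1.76 through 1.37 to 3.21 over the BV arrays and from -3.13 through -1.69 to 2.86 over the mock arrays (lowest, median, highest). In pair 2, where MX1 had its fold of 4.10, the index was 3.21 on the BV and -1.79 on the mock array, and in pair 5 it was 0.95 and -2.21. In the other 4 pairs it differed by -0.62, -1.07, 0.42 and 1.38, and the MX1 folds there were 2.63, 3.04, 2.03 and 3.39. With these 4 pairs alone, chosen after the data had been seen, the MX1 fold was 2.85 and those of MX2 1.31 and 1.69, and none passed (adjusted p = 0.396, 0.756 and 0.756). No probe set of the array passed in these pairs (1655 at an unadjusted p of 0.05). With the index as a covariate beside the 6 pairs, MX1 had 2.75 (adjusted p = 0.00903), the brighter MX2 probe set 1.32 (adjusted p = 0.154) and the dimmer one 1.40 (adjusted p = 0.315). This limma fit on single arrays treated both pieces of an animal as if independent, and 11 of 31660 probe sets passed in it. Without the index, the same fit gave folds of 3.04, 1.56 and 1.78 (adjusted p = 0.00193, 0.0266 and 0.0743).

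**Figure D3:**
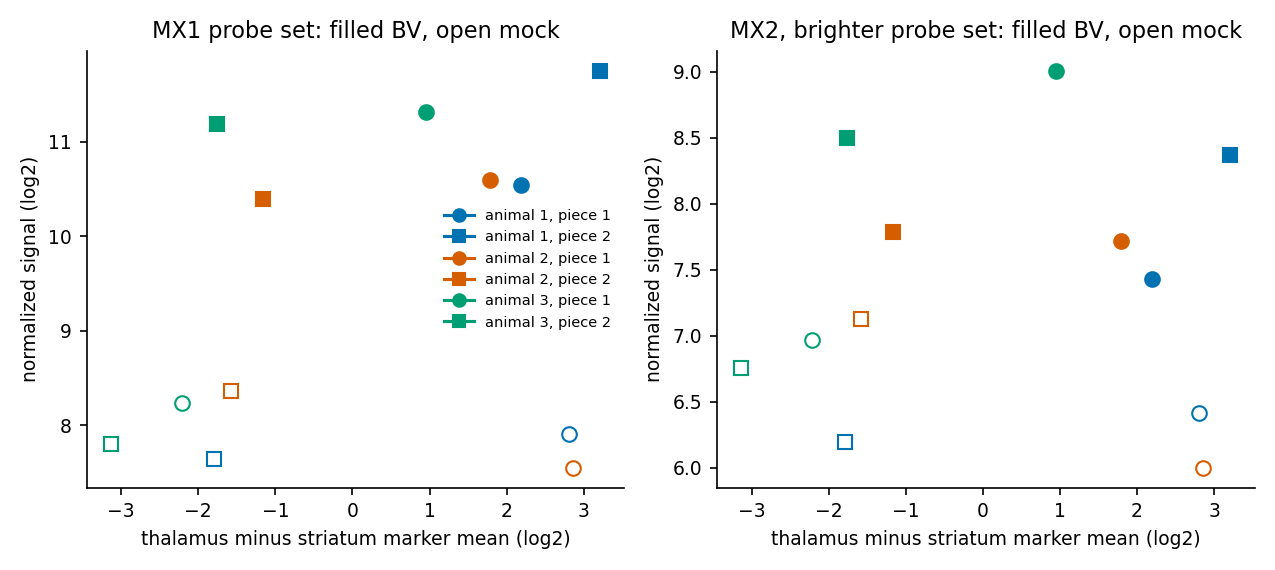
Normalized log2 signal of MX1 (left) and the brighter MX2 probe set (right) against the thalamus minus striatum marker mean of each array in log2 units, filled for BV and open for mock, coloured by animal with symbols for pieces. All BV arrays lie above all mock arrays, which would show against any index. At the low end MX1 had 11.19 on BV replicate 6 (index -1.76) and 7.8 on mock replicate 6 (index -3.13). At the high end it had 11.75 on BV replicate 2 (index 3.21) and 7.55 on mock replicate 3 (index 2.86).

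Other genes of the interferon response were read from the same fit. Of 47 listed antiviral effectors that interferon induces, 31 were measured, each by its brightest probe set. Of these 29 were higher on the BV side and 2 lower, and their median fold was 1.47, against -0.02 over all probe sets tested. Medians in animals 1, 2 and 3 were 1.42, 0.72 and 2.16. In the animal-block fit 3 passed, all higher (25 higher and 1 lower at an unadjusted p of 0.05): ISG15, a ubiquitin-like modifier, with 3.56 ± 0.13 (adjusted p = 0.00539), IFI27, a small membrane protein, with 2.55 ± 0.16, and IFIT3, a tetratricopeptide protein, with 2.13 ± 0.14 (adjusted p = 0.0256 for both). IFITM1 passed on a probe set other than its brightest (1.45, adjusted p = 0.0269) and is not counted among the 3. Its brightest had 1.24 ± 0.12 (adjusted p = 0.117). IFITM1 was picked with its values in view. By brightest probe sets, the MX1 fold lay below that of ISG15 and above those of the other 30, and 13 effectors exceeded the brighter MX2 probe set. Their calls moved with single arrays: 0 passed without mock replicate 5, 1 without animal 1, BV replicate 6 or mock replicate 3, 25 without animal 2 (of 1845 over the array), 11 without animal 3 (of 82), 8 without mock replicate 6 (of 43) and 7 without mock replicate 4 (of 28). They were 2 without BV replicate 2 (IFI27 lost, 6 or 0.019% over the array) or 3 (IFIT3 lost, 15 or 0.0474%), and 9 in the fit on 6 pairs.

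The signalling genes that connect interferon to MX1 and MX2 had a smaller median fold. Of 29 listed, 14 were measured, with 9 higher and 5 lower, a median fold of 0.21, and 0 passing (2 at an unadjusted p of 0.05, both higher; 0 in the fit on 6 pairs). The largest positive folds were those of IL10RB, a chain of the type III interferon receptor, at 1.04 ± 0.42, and IRF1, a transcription factor, at 1.00 ± 0.40 (adjusted p = 0.564 for both). STAT2, a transcription factor of interferon signalling, had 0.46 ± 0.19 (adjusted p = 0.564), and the type I receptor chain IFNAR2 had 0.74 ± 0.25 (adjusted p = 0.564). IRF7, which amplifies interferon production, had -0.89 ± 0.64 on its brightest probe set (adjusted p = 0.608) and 2.07 on another (adjusted p = 0.273). The last 3 genes were picked with their values in view. Without animal 2, where 5.83% of all probe sets passed, 4 genes of the list did, among them IL10RB (1.61, adjusted p = 0.00408) and IRF1 (1.46, adjusted p = 0.0123).

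Relatives of the MX genes in the dynamin superfamily, which share a GTPase that reshapes membranes or assembles on them, had no common direction. Of 21 listed, 13 were measured, with 6 higher and 7 lower, a median of -0.03, and 0 passing (3 at an unadjusted p of 0.05, all higher; 0 in the fit on 6 pairs). The guanylate-binding proteins GBP1 and GBP2, which interferons also induce and which are on the effector list too, had the largest folds, at 2.10 ± 0.55 (adjusted p = 0.524) and 1.52 ± 0.35 (adjusted p = 0.462). In animals 1, 2 and 3 GBP1 had 1.83, 0.67 and 3.79. Without animal 2, with its 5.83% over the array, these genes passed, at 2.81 (adjusted p = 0.000354) and 2.03 (adjusted p = 0.000282). GBP2 has 2 further probe sets, with folds of 1.65 and -0.03. The dynamins DNM1, DNM2 and DNM3, which pinch off vesicles, had folds of -0.09 ± 0.17, -0.07 ± 0.15 and -0.03 ± 0.12, and OPA1, which fuses inner mitochondrial membranes, -0.14 ± 0.16. The dynamins and OPA1 were chosen after their values were seen.

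Cellular partners of the Mx proteins were a short list of 18, of which 8 were measured, with 5 higher and 3 lower, a median of 0.01 and 0 passing (0 at an unadjusted p of 0.05 and in the fit on 6 pairs). DDX39A, an RNA helicase, had 0.48 ± 0.28 (adjusted p = 0.579), and PPP1CB, a catalytic subunit of protein phosphatase, had -0.45 ± 0.24 (adjusted p = 0.571).

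None of the measured genes next to MX1 and MX2 on the chromosome passed. Their order was read from RefSeq's gene table for Macaca fascicularis (T2T-MFA8v1.1), in which MX1 and MX2 are adjacent, with TMPRSS2, RIPK4, PRDM15, C2CD2 and ZBTB21 on one side and FAM3B, BACE2 and DSCAM on the other. Of 10 listed neighbours 7 were measured, with 3 higher and 4 lower, a median of -0.07 and 0 passing (0 at an unadjusted p of 0.05 and in the fit on 6 pairs). FAM3B, a secreted protein next to MX2, had 0.57 ± 0.27 (adjusted p = 0.569), and its other probe set 0.10. Without animal 2, where 5.83% of all probe sets passed, FAM3B passed at 0.89 (adjusted p = 0.0491). BACE2, an aspartic protease, had -0.36 ± 0.17 and RIPK4, a kinase, -0.07 ± 0.17. PRDM15, a zinc finger protein, had -0.14 ± 0.20, C2CD2 0.24 ± 0.15, ZBTB21 0.15 ± 0.15 and DSCAM, a neuronal adhesion molecule, -0.16 ± 0.15. TMPRSS2, the protease gene beside MX1, lay below the filter, its median signal being 13.3 on BV and 16.6 on mock arrays.

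**Figure D4:**
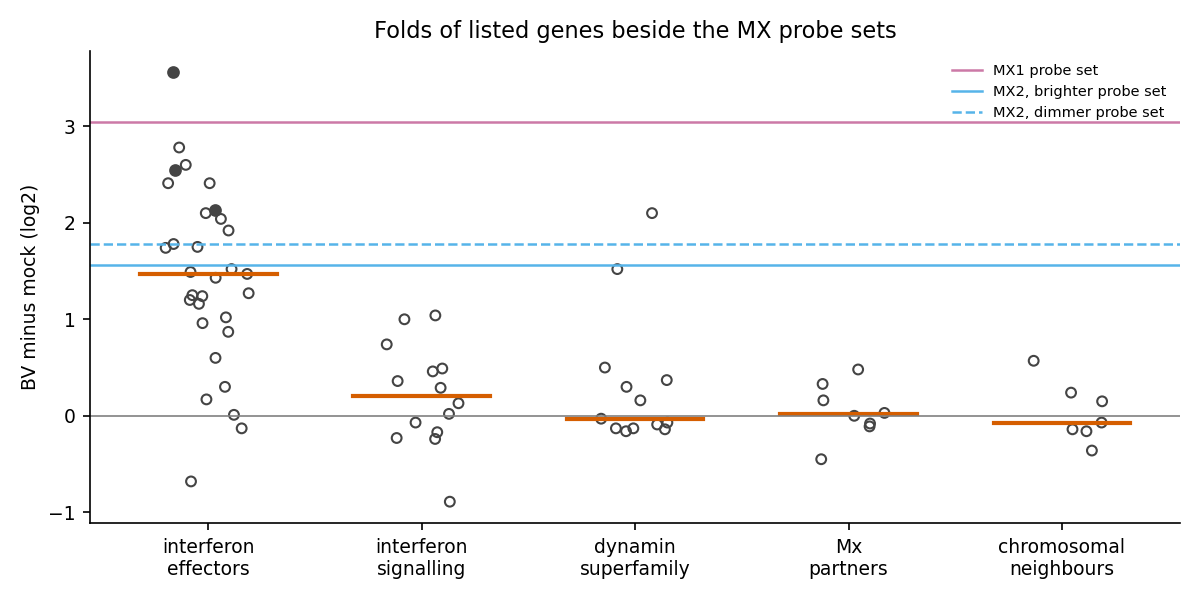
Log2 folds, BV minus mock, of the measured genes of 5 lists (circles, filled where the adjusted p passed 0.05; orange bars are list medians), beside horizontal lines for the 3 MX probe sets. The MX1 line at 3.04 lies below 1 effector, ISG15 at 3.56, while the medians of the other 4 lists lie between -0.07 and 0.21.

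The genes whose pattern was most like that of MX1 over the 12 arrays were ISG15 (Pearson r = 0.98), IFIT3 (r = 0.972), IFIT1 (r = 0.963), TTLL6 (r = 0.959) and RPL24 (r = 0.952). The median r over all probe sets tested was -0.03, and 32 other probe sets were above 0.9. These correlations carry the treatment difference and the shared animals and arrays. Within the 6 BV arrays the same genes had r of 0.82, 0.68, 0.74, 0.77 and 0.33, and within the 6 mock arrays 0.62, 0.89, 0.57, 0.79 and 0.73. IFIT1, a tetratricopeptide protein that binds foreign RNA, had a fold of 2.60 ± 0.22 (adjusted p = 0.072). TTLL6, annotated as a tubulin-modifying enzyme, had 2.64 ± 0.18 (adjusted p = 0.0269), and RPL24, annotated as a ribosomal protein, had 1.46 ± 0.09 (adjusted p = 0.0256); both lost the call on leaving out animal 1, BV replicate 6, mock replicate 3 or mock replicate 5, while IFIT1 passed without animal 2 (2.79, adjusted p = 2.07e-05), on leaving out 7 others in turn, and with the replicate block of 6 pairs (adjusted p = 0.005). No probe sequences were used here, so whether these probe sets measure the genes they are named for was not tested. Over the whole array 5.83% of probe sets passed without animal 2, and 0.167% passed as higher with the 6 pairs.

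The brighter MX2 probe set was most like a second TTLL6 probe set (r = 0.989), TRIM25 (r = 0.967), a ubiquitin ligase of RNA sensing, OAS3 (r = 0.962), a synthetase that activates RNase L, LGALS3BP (r = 0.961), a secreted glycoprotein, and IFIH1 (r = 0.956), the RNA sensor MDA5. For MX2 the median r was -0.04, and 76 other probe sets were above 0.9. Within the BV arrays these 5 had r of 0.98, 0.96, 0.97, 0.99 and 0.95, and within the mock arrays 0.94, 0.90, 0.66, 0.66 and 0.65. Their folds were 2.38 ± 0.18 (adjusted p = 0.0425), 1.25 ± 0.24 (adjusted p = 0.375), 2.12 ± 0.32 (adjusted p = 0.277), 2.41 ± 0.26 (adjusted p = 0.157) and 1.97 ± 0.24 (adjusted p = 0.194). The OAS3 probe set with this pattern was not the brightest of its gene, which had a fold of 0.17. TRIM25, OAS3, LGALS3BP and IFIH1 passed without animal 2 (adjusted p from 2.74e-05 to 0.00157), and all but TRIM25 without animal 3, LGALS3BP and IFIH1 also without mock replicate 4 or 6. With the replicate block of 6 pairs OAS3 (adjusted p = 0.0266), LGALS3BP (0.00921) and IFIH1 (0.0266) passed and TRIM25 did not (0.0681), and with hemisphere as a random block all 4 did (0.00127 to 0.0235). Over the whole array 5.83% of probe sets passed without animal 2, 0.259% without animal 3, and 0.0884% and 0.136% without mock replicates 4 and 6. With the 6 pairs 0.167% passed as higher, and with the random block 0.268% passed. These genes were picked by correlation over arrays that carry the treatment difference, so their calls are not independent of that choice.

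Markers of immune cells, which can make MX transcripts as brain cells can, did not pass between BV and mock tissue, and their values are given beside those of MX. Of 9 measured monocyte and neutrophil markers 8 were higher and 1 lower on the BV side, the median fold being 1.08, with medians of 1.58, 0.07 and 1.37 in animals 1, 2 and 3. Their mean log2 signal ran from 5.99 through 7.13 to 7.72 over BV arrays. Over mock arrays it ran from 5.24 through 6.04 to 7.52, and these unpaired ranges overlapped. For replicates 1 to 6 it was 6.16, 7.69, 5.99, 7.72, 7.34 and 6.92 on BV arrays. The mock arrays of the same numbers had 5.24, 6.07, 6.02, 7.52, 6.74 and 5.35, higher than BV in replicate 3 alone. The largest folds of this list were those of LYZ, lysozyme, at 1.47 ± 0.40 (adjusted p = 0.544) and FCN1, a monocyte lectin, at 1.51 ± 0.40 (adjusted p = 0.535). The lowest was that of MPO, at -0.19 ± 0.19 (adjusted p = 0.695). Of 12 microglia and macrophage markers 9 were higher and 3 lower, with a median of 0.23 and mean signals of 8.20 to 9.29 in BV and 7.88 to 9.03 in mock arrays, and 5 of 5 measured lymphocyte markers had folds at or above 0, with a median of 0.45. No member of these lists passed in the animal-block fit (5, 5 and 3 higher, and 0, 1 and 0 lower, at an unadjusted p of 0.05) or in the fit on 6 pairs. The part of these cells in the MX difference was not tested.

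Markers of other cell types had medians below the 1.08 of monocytes and neutrophils. The median over 5 neuronal genes was 0.22, close to the 0.23 of microglia and macrophages. It was 0.02 over 6 astrocyte, 0.06 over 2 oligodendrocyte and 0.19 over 4 endothelial and pericyte genes, and -0.06 over 2 red cell genes. The most extreme folds of these lists were those of VSNL1, a neuronal calcium sensor, at 0.91 ± 0.24 (adjusted p = 0.524) and SLC1A2, the astrocyte glutamate transporter, at -1.0 ± 0.20 (adjusted p = 0.407). Striatal neuron markers were lower in 9 of 9 measured genes, with a median of -0.87, and thalamic markers higher in 7 of 9, with a median of 0.36. No member of these 7 lists passed in the animal-block fit (6 higher and 2 lower at an unadjusted p of 0.05) or in the fit on 6 pairs. Of the 6 higher, 4 were among the 9 thalamic genes. SHOX2 had 1.73 ± 0.16 (adjusted p = 0.101) and NTNG1 1.44 ± 0.18 (adjusted p = 0.194), both picked with their values in view. The thalamic medians in animals 1, 2 and 3 were 0.47, 0.15 and 0.87, and the striatal medians -1.63, 0.63 and -1.65.

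**Figure D5:**
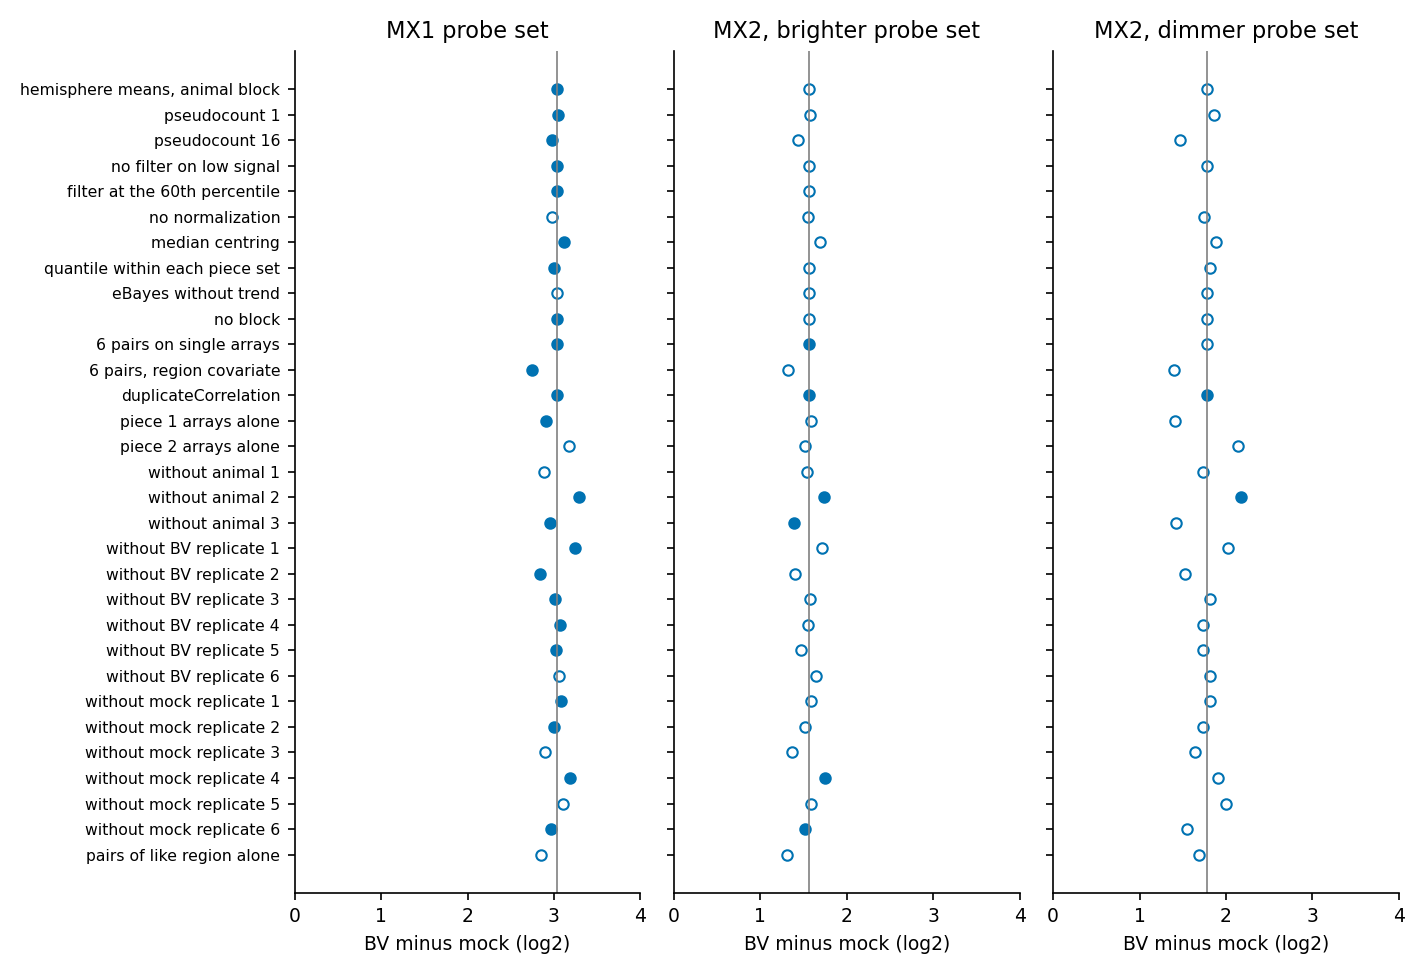
Log2 fold, BV minus mock, of the 3 MX probe sets under each processing alternative, filled where the adjusted p passed 0.05 and open where it did not; the grey line is the fold in the animal-block fit. MX1 stays between 2.75 and 3.29, and the dimmer MX2 probe set, which the stricter filter removed, ranges from 1.40 to 2.18.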

How the data were processed

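The authors deposited intensities on a linear scale, with a column of probe set signals for each array. The software GCOS, version 1.4.0.036, is named in the submitters' processing notes; how probes were summarised, scaled or filtered is not given in the sources. Per the labels' protocols, RNA isolated with Trizol was column-cleaned, and 5 µg went into labelling with kits of 2 makers, with no statement of which array got which. Arrays were quantile normalized and transformed to log2(signal + 3.49); this pseudocount, percentile 10 of all deposited signals, understates folds of dim probe sets. Of 52766 probe sets that are not controls, the 31660 tested had a mean log2 signal of 4.95 (percentile 40) or more. Symbols came from the annotation of a rhesus array (24969 probe sets with 1 symbol, 361 with several, 27535 with none listed), which can be old; cynomolgus RNA may bind its probes less well. Of 14133 symbols, 12584, MX1 and MX2 among them, occur in RefSeq's Macaca fascicularis table.

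Pieces were averaged per hemisphere and fitted in limma 3.58.1 (R 4.3.3) with animal as a block, eBayes with a trend, 2 residual degrees of freedom, two-sided, with Benjamini-Hochberg adjustment over all probe sets at 0.05. Leaving out an animal leaves 2 animals and fewer residual degrees of freedom. The adjusted p values of those fits therefore lean on the variance that eBayes shares over probe sets. Animal by treatment was tested on 12 arrays with a term for piece, and fold by piece on 3 differences. The scripts were tested on simulated data. Pairing follows the treatment protocol, since both preparations went into every animal. Deviations from the group mean correlated between the hemispheres of an animal at 0.622, 0.156 and 0.361, and between equal replicate numbers at 0.284 to 0.623. Equal replicate numbers also share the piece and array set, and mismatched pairs were not compared, so these values do not test the pairing. The number of arrays limits the precision.

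Members and lists were chosen with earlier results of these data known. Named were all MX probe sets, 5 genes of most similar pattern for each gene, passing list members or else the 2 of largest fold, and all measured neighbours. Cell type markers and genes below the filter that are named fall outside this rule. The remaining genes outside it are said to be chosen after their values were seen.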

Additional observations from a re-analysis of the deposited data

How the results depend on the processing

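MX1 and both MX2 probe sets were higher in BV tissue under every alternative run, 30 for MX1 and the brighter MX2 probe set. MX1 lost its call without normalization (fold 2.98, adjusted p = 0.107), without the variance trend (3.04, 0.0783), in the piece 2 arrays alone (3.17, 0.545) and in the pairs of like region alone (2.85, 0.396). With 1 animal or array left out, its fold ranged from 2.84 to 3.29 (adjusted p from 1.79e-06 to 0.337), that of the brighter MX2 probe set from 1.37 to 1.75 (0.000512 to 0.657) and that of the dimmer from 1.42 to 2.18 (0.000167 to 0.657). With the replicate block of 6 pairs the brighter MX2 probe set passed at 1.56 (adjusted p = 0.0266), and with duplicateCorrelation both did, at 1.56 (0.0049) and 1.78 (0.0239); the pairing moved no other MX call.

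The count of 9 probe sets was 5 without a filter, 1 without normalization, 1 without the trend, 4 with no replicate block, 55 with the replicate block of 6 pairs, 85 with duplicateCorrelation, 14 and 0 in the piece 1 and piece 2 arrays, 0 in the pairs of like region (chosen after seeing the data), and from 0 (without mock replicate 5; 1703 at an unadjusted p of 0.05) to 1845 (without animal 2) with 1 animal or array left out. For the brighter MX2 probe set the difference between pieces turned sign, at -0.04 without normalization, -0.10 with median centring and -0.03 with quantile normalization within pieces. Folds near 0 turned sign as well, none of them passing: C2CD2 to -0.01 with the region covariate, -0.01 without mock replicate 2 and -0.09 in pairs of like region, PPP1CB to 0.06 and 0.07 with the covariate and in those pairs, DSCAM to 0.13 in piece 2 arrays, and RIPK4 and PRDM15 to 0.04 and 0.08 without animal 3. With 1 animal or array left out, these folds ran from -0.16 to 0.04 for RIPK4, from -0.31 to 0.08 for PRDM15 and from -0.01 to 0.49 for C2CD2. The cause was not tested. The filter at the 60th percentile removed the dimmer MX2 probe set.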

Other observations

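Interferon genes themselves were dim on these arrays and were not tested. IFNB1, interferon beta, had a median signal of 8.61 on BV and 17.9 on mock arrays, IFNG, interferon gamma, 3.46 and 4.97, and IFNK 2.10 and 1.65. Other genes below the filter differed in direction: EPSTI1 had 30.9 against 8.04, with highest values of 126 and 22.7, PML, the scaffold of nuclear bodies, 30.6 against 21.5, and GBP7, a relative of the MX genes, 10.6 against 1.16. GBP6, of the same family as GBP7, had 9.43 in BV against 10.9 in mock tissue.

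Probe sets of some interferon effectors disagreed. IFIT2 had a fold of 0.01 ± 0.13 on its brightest probe set (limma adjusted p = 0.99), and 0.05, 0.05, 0.29, 1.63 and 2.56 on the others, none of which passed. TRIM22, a ubiquitin ligase, had -0.68 ± 0.14 (adjusted p = 0.423) on its brightest probe set and 1.05 on another. OASL, a relative of the oligoadenylate synthetases, was higher in all 3 animals by unequal amounts, with 1.55, 1.47 and 5.34 in animals 1, 2 and 3, where MX1 had 3.36, 2.54 and 3.22. These genes were chosen after their values were seen.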
